A study of Mus musculus with 8 samples.

Results

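The nitric oxide (NO) and cGMP pathway was followed through 10 genes: the NO synthases Nos1, Nos2 and Nos3, the caveolar protein Cav1, the soluble guanylyl cyclase subunits Gucy1a1 and Gucy1b1, the natriuretic peptide receptors Npr1 and Npr3, the cGMP-dependent kinase Prkg1 and the cGMP phosphodiesterase Pde5a. They were found by exact symbol, and all 10 were present among the 25526 symbols listed in each count table. The libraries came from aortas of male mice heterozygous for the missense allele Fbn1 C1041G, a mouse model of Marfan syndrome in which fibrillin-1 is mutated. RNA of 4 mice aged 2 years, an age at which aneurysm growth had stopped, was compared with RNA of 4 mice aged 12 weeks, an age of aneurysm growth. Both ages carried the allele. Wild-type mice were not analysed here, so that ageing as such and ageing with the allele cannot be told apart. The labels name the tissue as aorta without its segment and without saying what was trimmed from the wall.

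NO is made from arginine by NO synthases, in the vessel wall chiefly by the endothelial enzyme Nos3. It diffuses into smooth muscle cells and binds the haem of soluble guanylyl cyclase, a dimer of an alpha and a beta subunit that makes cGMP. Natriuretic peptides make the same messenger through receptors that carry a cyclase of their own. cGMP activates the kinase Prkg1, which relaxes smooth muscle by lowering calcium and by releasing myosin phosphatase, and phosphodiesterases such as Pde5a break cGMP down.

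Total counts per library ranged from 16251986 to 33880690. The defining smooth muscle markers Acta2 and Tagln were abundant at both ages. In 12 weeks replicate 3 the 10 heart muscle markers summed to 1011 CPM (counts per 1000000 of the TMM-adjusted library size), against 236 to 306 CPM in the other 12-week libraries and 106 to 195 CPM at 2 years. In those other 12-week libraries a single marker made up most of the sum. That marker had a similar level in all 12-week libraries and was lower at 2 years. Outside 12 weeks replicate 3 the sums therefore do not rank heart tissue between the ages. The mitochondrial share of counts was 10.3% in 2 years replicate 3 and 4.14 to 7.33% in the other libraries. Member and marker results that lose or gain a call, or whose count moves by over 1.5 times, without these libraries are given with and without them. Fold changes also followed transcript length: over 10 bins of genes the median log2 fold change ran from 0.60 at a median of 1031 nt to -0.64 at 8278 nt. The slope of log2 CPM, centred per gene, on log2 length was -0.31 to -0.11 in the 2-year libraries. At 12 weeks it was 0.12 in replicate 1 and 0.23 to 0.26 in the other libraries. The slopes split the ages, so that a difference in RNA quality or library preparation cannot be told apart from age. A fit with an offset for transcript length and GC share is therefore given where it moves a member.

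Most members of the pathway were lower at 2 years, both those that make or pass on the signal and those that limit it. The natriuretic peptide clearance receptor Npr3 was higher. Of the 9 members that passed the filter on low counts, 7 were lower and 1 was higher at 2 years (edgeR's quasi-likelihood test, adjusted p below 0.05). Over all 13978 genes tested, 26.2% were lower, 25.8% were higher and 52.0% were called in either direction by the same rule. The median log2 fold change (2 years over 12 weeks) was -0.76 over the 9 members and -0.01 over all genes tested. The values of the ages did not overlap for 7 of the 9 tested members, 6 of them lower and 1 higher at 2 years. Of all genes tested, 49.6% had no overlap. Under the length and GC offset 6 members were lower and 1 was higher, against 25.6% and 24.9% of all genes and 50.5% in either direction. Without replicate 3 of both ages 5 of 8 tested members were lower and 1 was higher, against 23.7% and 22.7% of all genes. In bulk tissue, fewer cells of a type and less RNA per cell cannot be told apart.

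**Figure D1:**
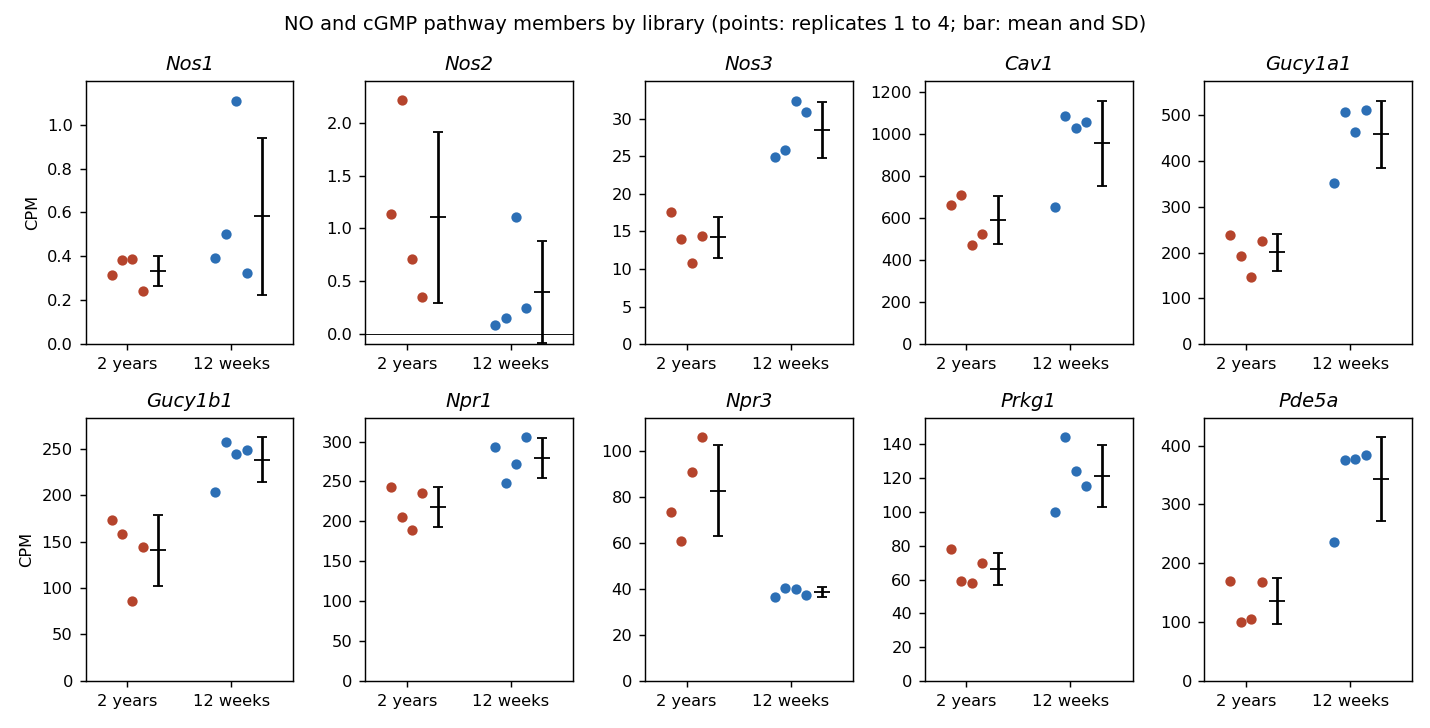
CPM of the 10 members in each library, with 2 years on the left and 12 weeks on the right of each panel. Points are replicates 1 to 4 from left to right and the bar is the mean with its SD. The ages are apart for Nos3, both cyclase subunits, Npr1, Npr3, Prkg1 and Pde5a, and overlap for Nos1, Nos2 and Cav1.

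Nos3, the endothelial NO synthase, was lower at 2 years. It had 17.6, 13.9, 10.9 and 14.4 CPM in 2 years replicates 1 to 4, against 24.9, 25.8, 32.4 and 30.9 CPM in 12 weeks replicates 1 to 4. Every 2-year value lay below every 12-week value, and the lowest was that of 2 years replicate 3. The means were 14.2 ± 2.75 CPM at 2 years and 28.5 ± 3.70 CPM at 12 weeks (SD, n = 4 each). The log2 fold change was -1.0 (SE 0.16, adjusted p = 0.000451, edgeR), and -0.68 (adjusted p = 0.00863) under the length and GC offset. Of 15 endothelial markers, 1 was higher and 2 were lower at 2 years. These were Robo4 (log2 fold change 1.15), Tek (-0.75) and Erg (-1.21), named after their values had been seen. The most abundant, Pecam1 (-0.47, adjusted p = 0.130) and Eng (0.24, adjusted p = 0.241), were not called. The summed endothelial markers ranged from 711 to 922 CPM at 2 years and from 692 to 1171 CPM at 12 weeks, so that these sums overlapped. The overlap came from 12 weeks replicate 1, at 692 CPM, and the other 12-week libraries had 1083 to 1171 CPM. Without that library 5 endothelial markers were lower and 1 was higher, and Pecam1 was called (-0.68, adjusted p = 0.00880). Without 12 weeks replicate 3, 2 were higher and 2 lower, and without replicate 3 of both ages 2 were higher and 1 was lower. Nos3 amounted to 1.40 to 2.05% of that sum at 2 years and to 2.33 to 3.60% at 12 weeks, without overlap. This ratio differed by -0.73 on the log2 scale (exact two-sided permutation p = 0.0286, the smallest that 70 assignments allow, and 0.05 after adjustment over 7 ratios).

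The other synthases were near the limit of counting. Nos2, the inducible synthase that activated macrophages express, had 40, 52, 11 and 10 counts in 2 years replicates 1 to 4, against 2, 4, 30 and 6 counts in 12 weeks replicates 1 to 4. The 12-week library with 30 counts is the one with high heart muscle markers, and the ages overlapped through it. The log2 fold change was 1.44 (SE 0.75, edgeR adjusted p = 0.130), and 2.73 (adjusted p = 0.0109) without 12 weeks replicate 3. Without replicate 3 of both ages Nos2 did not pass the filter. Of 14 macrophage markers 13 were higher and 0 were lower at 2 years, and their sum ranged from 2960 to 4267 CPM at 2 years against 839 to 1177 CPM at 12 weeks. Nos1, the neuronal synthase, had 11, 9, 6 and 7 counts at 2 years and 9, 13, 30 and 8 counts at 12 weeks, and did not pass the filter. In the fit with no low-count filter its log2 fold change was -0.83 (SE 0.53, adjusted p = 0.235). Its highest value was also in 12 weeks replicate 3. The part of macrophages and heart tissue in these values was not tested.

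Cav1, the main caveolar coat protein of endothelium and smooth muscle and an inhibitor of Nos3, was the most abundant member. It had 662, 713, 473 and 523 CPM in 2 years replicates 1 to 4, against 654, 1087, 1032 and 1057 CPM in 12 weeks replicates 1 to 4. The value of 12 weeks replicate 1 fell among the 2-year values, and the other 12-week values lay above all of them. The log2 fold change was -0.69 (SE 0.20, edgeR adjusted p = 0.0127). Without replicate 3 of both ages Cav1 was not called (-0.55, adjusted p = 0.0610).

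Both subunits of soluble guanylyl cyclase, the NO receptor, fell. Gucy1a1, the alpha subunit, had 238, 193, 147 and 225 CPM in 2 years replicates 1 to 4, against 353, 508, 464 and 511 CPM in 12 weeks replicates 1 to 4. The ages did not overlap, and 12 weeks replicate 1 was the lowest of its age. Gucy1a1 averaged 201 ± 40.5 CPM at 2 years and 459 ± 73.8 CPM at 12 weeks, which is -1.19 on the log2 scale (SE 0.18, adjusted p = 0.000294, edgeR). Gucy1b1, the beta subunit that binds the haem, had 173, 158, 86.5 and 145 CPM in 2 years replicates 1 to 4, against 203, 257.4, 244 and 248 CPM in 12 weeks replicates 1 to 4. The ages again did not overlap, and 2 years replicate 3 was the lowest library. Its log2 fold change was -0.76 (SE 0.20, adjusted p = 0.00724). Within a library, the ratio of CPM (Gucy1a1 over Gucy1b1) was 1.37, 1.22, 1.70 and 1.56 at 2 years and 1.74, 1.97, 1.90 and 2.06 at 12 weeks. The ratio was lower in every 2-year library than in any 12-week library, by -0.40 on the log2 scale (exact two-sided permutation p = 0.0286, adjusted p = 0.05 over 7 ratios), and the difference was -0.16 under the length and GC offset.

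The steps after cGMP fell as well. Prkg1, the cGMP-dependent kinase of smooth muscle, had 78.1, 59.1, 57.9 and 69.9 CPM in 2 years replicates 1 to 4, against 100.2, 144, 125 and 115 CPM in 12 weeks replicates 1 to 4. The ages did not overlap, and the log2 fold change was -0.87 (SE 0.15, edgeR adjusted p = 0.000660). Its longest transcript has 6976 nt, and under the length and GC offset the value was -0.40 (adjusted p = 0.00230). Pde5a, which degrades cGMP, had 169, 99.9, 105 and 169 CPM in 2 years replicates 1 to 4, against 236, 375, 377 and 384 CPM in 12 weeks replicates 1 to 4. Every 2-year value lay below every 12-week value, although 12 weeks replicate 1 stood well below the other 12-week libraries. Pde5a had the largest fall among the members, at -1.34 on the log2 scale (SE 0.22, adjusted p = 0.000538), or -0.82 (adjusted p = 0.00183) with the offset, where Gucy1a1 was at -1.02, Cav1 at -0.86 and Gucy1b1 at -0.84.

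Contractile smooth muscle markers moved with these genes. Of 15 markers 11 were lower and 0 were higher at 2 years (26.2% and 25.8% of all genes tested), and their sum was 23782 to 34424 CPM at 2 years against 40141 to 47763 CPM at 12 weeks. The most abundant of them, Acta2 (log2 fold change -0.38, adjusted p = 0.144) and Tagln (0.15, adjusted p = 0.490, or -0.27 with the offset), were not called. The part of smooth muscle content in the falls of the cyclase, kinase and phosphodiesterase was not tested. Set against that sum, Gucy1a1 was 0.618 to 0.740% at 2 years and 0.792 to 1.15% at 12 weeks, a log2 difference of -0.60 (exact permutation p = 0.0286, adjusted p = 0.05). Under the length and GC offset that difference was -0.28. Pde5a differed by -0.75 on this scale (exact permutation p = 0.0571, adjusted p = 0.0800), with overlap through 12 weeks replicate 1, and by -0.08 with the offset. The ratios of Prkg1 (-0.26, exact permutation p = 0.114, adjusted p = 0.133) and of Gucy1b1 (-0.20, exact permutation p = 0.257, adjusted p = 0.257) overlapped between the ages. With the offset the Prkg1 ratio was 0.35. At 2 years Acta2 and Tagln averaged 10565 and 6219 CPM of a mean sum of 29462 CPM, so these ratios lean on markers that were not called. With the median of log2 ratios to single markers, the difference was -0.35 for Gucy1a1 and -0.50 for Pde5a. On that scale it was -0.02 for Prkg1 and 0.05 for Gucy1b1, whose sign thus changed. None of the 7 ratios had an adjusted p below 0.05.

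**Figure D2:**
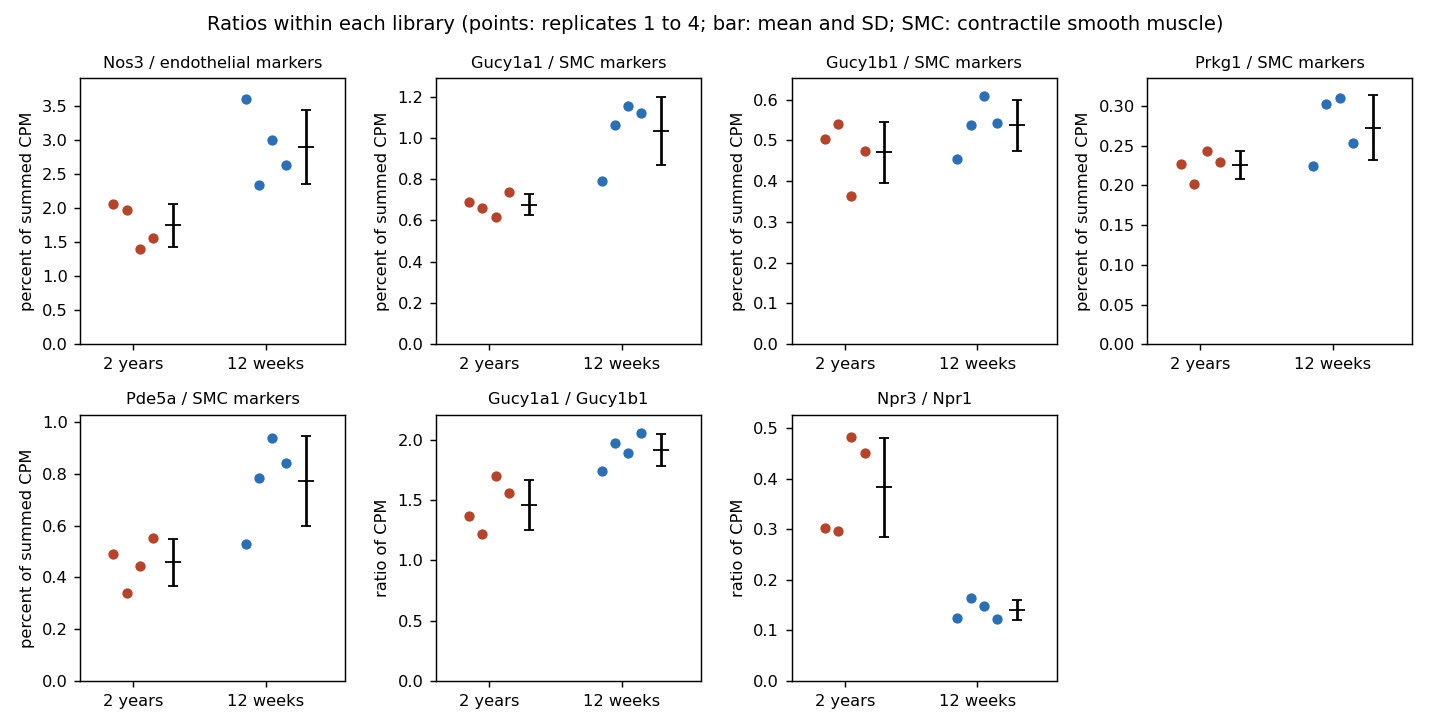
Ratios computed within each library, with 2 years on the left and 12 weeks on the right. Points are replicates 1 to 4 and the bar is the mean with its SD; ratios to marker lists are percent of the summed CPM of the list. The ages are apart for Nos3 over endothelial markers, Gucy1a1 over smooth muscle markers, Gucy1a1 over Gucy1b1 and Npr3 over Npr1.

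The natriuretic peptide receptors went in opposite directions. Npr3, the clearance receptor that takes up natriuretic peptides and has no cyclase domain, had 73.5, 60.8, 91.2 and 106 CPM in 2 years replicates 1 to 4, against 36.4, 40.7, 40.1 and 37.5 CPM in 12 weeks replicates 1 to 4. All 2-year values were above all 12-week values, and the 2-year values were spread more widely (82.9 ± 19.9 CPM against 38.7 ± 2.05 CPM, SD, n = 4 each). The log2 fold change was 1.10 (SE 0.17, edgeR adjusted p = 0.000285), and 1.55 (adjusted p = 2.97e-05) under the length and GC offset. Npr1, the receptor for atrial and B-type natriuretic peptides, had 243, 206, 189 and 236 CPM in 2 years replicates 1 to 4, against 293, 248, 272 and 305 CPM in 12 weeks replicates 1 to 4. The ages were apart by a narrow margin. Its log2 fold change of -0.36 (SE 0.13, adjusted p = 0.0408) was not called under 10 of 16 alternatives and was -0.07 (adjusted p = 0.612) with the offset. The leave-outs that ended the call were those of 12 weeks replicate 1 (-0.34), 3 (-0.37) and 4 (-0.32) and of 2 years replicate 2 (-0.35) and 3 (-0.29). The ratio of Npr3 to Npr1 CPM was 0.303, 0.296, 0.483 and 0.451 at 2 years and 0.124, 0.164, 0.147 and 0.123 at 12 weeks, a log2 difference of 1.43 without overlap (exact two-sided permutation p = 0.0286, adjusted p = 0.05). Fat cells and fibroblasts can express these receptors. Of 12 fat markers 1 was higher and 1 lower at 2 years, and their sums overlapped (605 to 1219 CPM at 2 years, 807 to 1471 CPM at 12 weeks). The lower marker was the most abundant of the 12 at 12 weeks, so these sums lean on it. The median log2 fold change of the 12 fat markers was 0.32. The fat markers that were higher numbered 4 without 12 weeks replicate 3, 3 without replicate 3 of both ages, and 0 without 2 years replicate 1, 2 or 3 or 12 weeks replicate 1, 2 or 4. Of 12 fibroblast markers 1 was higher and 3 were lower, and their sum in 2 years replicate 3 was 13149 CPM, above the 6760 to 8714 CPM of the other 2-year libraries and the 11224 to 12586 CPM at 12 weeks. Without that library, and without replicate 3 of both ages, 6 fibroblast markers were lower and 1 was higher. Of 13 nerve and Schwann cell markers 4 were higher and 2 lower, and of 9 tested heart muscle markers 4 were lower and 0 higher. The heart muscle markers that were lower numbered 2 without 12 weeks replicate 3, 1 without replicate 3 of both ages or any single 2-year library, and 6 without 12 weeks replicate 1 or 2. By DESeq2 and by limma voom 1 was lower. The part of these cell types in the receptor values was not tested.

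Promoter windows from RefSeq (build GRCm38.p6, an older build than the GRCm39 that the submitters' processing notes name) were found by symbol for 8 of the 10 members. Each window runs from 250 bases before the annotated start to 50 bases after it. Those of Gucy1a1, Gucy1b1, Prkg1 and Pde5a are shown because these genes fell together, and that of Npr3 because it moved the other way, as described above for each gene. Where a gene has several start sites the first listed is printed. Sequences are on the strand of the gene, 5′ to 3′, and capitals mark matches to the GC box GGGCGG on either strand. The windows lie at chr3:82145601-82145900 (minus strand) for Gucy1a1, chr3:82074662-82074961 (minus) for Gucy1b1, chr19:31764984-31765283 (minus) for Prkg1, chr3:122728908-122729207 (plus) for Pde5a and chr15:11907322-11907621 (minus) for Npr3.
Gucy1a1: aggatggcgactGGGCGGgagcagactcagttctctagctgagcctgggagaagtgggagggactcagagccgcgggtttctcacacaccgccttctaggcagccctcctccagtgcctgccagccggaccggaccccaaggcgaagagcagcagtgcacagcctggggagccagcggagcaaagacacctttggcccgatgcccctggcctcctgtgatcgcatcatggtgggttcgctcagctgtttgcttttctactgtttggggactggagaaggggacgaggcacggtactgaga
Gucy1b1: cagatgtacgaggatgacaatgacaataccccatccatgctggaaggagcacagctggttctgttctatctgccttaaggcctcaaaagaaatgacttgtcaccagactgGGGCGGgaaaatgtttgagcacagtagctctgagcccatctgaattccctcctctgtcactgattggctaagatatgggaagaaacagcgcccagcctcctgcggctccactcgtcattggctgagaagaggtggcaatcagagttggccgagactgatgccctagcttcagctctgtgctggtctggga
Prkg1: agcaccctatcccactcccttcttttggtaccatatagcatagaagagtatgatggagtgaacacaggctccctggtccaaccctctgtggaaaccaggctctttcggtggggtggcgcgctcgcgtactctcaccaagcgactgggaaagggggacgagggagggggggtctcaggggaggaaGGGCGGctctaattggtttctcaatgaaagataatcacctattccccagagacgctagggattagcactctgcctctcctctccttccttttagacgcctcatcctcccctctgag
Pde5a: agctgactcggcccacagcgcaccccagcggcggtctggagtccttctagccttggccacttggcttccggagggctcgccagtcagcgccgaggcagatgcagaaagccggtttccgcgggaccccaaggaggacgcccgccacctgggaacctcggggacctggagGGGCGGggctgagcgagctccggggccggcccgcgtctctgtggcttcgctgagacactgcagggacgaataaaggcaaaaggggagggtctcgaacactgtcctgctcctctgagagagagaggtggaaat
Npr3: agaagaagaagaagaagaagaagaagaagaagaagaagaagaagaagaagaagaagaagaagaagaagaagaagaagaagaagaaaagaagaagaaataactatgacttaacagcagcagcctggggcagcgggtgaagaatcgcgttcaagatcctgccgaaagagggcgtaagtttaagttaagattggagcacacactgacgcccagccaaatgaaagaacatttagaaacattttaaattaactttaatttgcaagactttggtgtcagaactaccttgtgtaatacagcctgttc

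Of the windows printed, those of Gucy1a1, Gucy1b1, Prkg1 and Pde5a hold 1 GC box each, at bases that begin 238, 140, 66 and 82 before the start of Gucy1a1, Gucy1b1, Prkg1 and Pde5a, and that of Npr3 holds none. Windows not printed differ: the second start site of Gucy1a1 has no GC box, while the Npr1 window and the first window of Cav1, genes that were also lower, have 2 each. GGGCGG on either strand is present in 35.7% of all 32851 windows in the table. It is present in 7 of the 11 windows of the members, which belong to 6 members. None of the 11 windows of the members holds a CArG box, the site of serum response factor, which is present in 1.63% of all windows. TATAAA is present on either strand in 1 of the 11 windows, at Cav1, and in 13.6% of all windows. No 2 of these motifs overlap in the windows shown. The Npr3 window begins with a repeat of aag and has a GC share of 39.0%, against 52.3 to 66.3% in the other windows shown and a median of 52.7% over all windows. Gucy1a1 and Gucy1b1 lie on the same strand of chromosome 3 with windows 70.9 kb apart. No factor binding was measured in these samples.

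Per kilobase of the longest coding transcript, the order of levels at 2 years was Cav1 (216 ± 41.2 CPM per kb), Npr1 (53.7 ± 6.24), Gucy1b1 (43.6 ± 11.8), Gucy1a1 (42.6 ± 8.59), Pde5a (17.9 ± 5.05), Npr3 (12.0 ± 2.89), Prkg1 (9.499 ± 1.37), Nos3 (3.44 ± 0.665), Nos2 (0.264 ± 0.193) and Nos1 (0.0329 ± 0.00682; SD, n = 4). At 12 weeks it was Cav1 (349 ± 74.1 CPM per kb), Gucy1a1 (97.4 ± 15.7), Gucy1b1 (73.9 ± 7.498), Npr1 (68.8 ± 6.20), Pde5a (45.1 ± 9.36), Prkg1 (17.4 ± 2.64), Nos3 (6.89 ± 0.895), Npr3 (5.61 ± 0.298), Nos2 (0.0951 ± 0.114) and Nos1 (0.0575 ± 0.0355). The libraries of Npr1, Gucy1b1 and Gucy1a1 overlapped at 2 years, as did those of Pde5a with Npr3 and of Npr3 with Prkg1. At 12 weeks Gucy1a1, Gucy1b1 and Npr1 overlapped with each other, and Nos2 with Nos1. Npr3 was above Nos3 in all 2-year libraries and below it in all 12-week libraries on this scale. With the median transcript length in place of the longest, 5 of the 10 members kept their place at 2 years, and Npr3 lay above Nos3 at both ages (34.0 against 3.63 CPM per kb at 2 years, 15.9 against 7.28 CPM per kb at 12 weeks).

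Among themselves the members with the closest profiles over the 8 libraries were Nos3 and Gucy1a1, whose log2 CPM, each centred on its mean, differed by a root mean square of 0.18, and Gucy1a1 and Pde5a, at 0.18. Over 12910 genes the profile nearest to Nos3 was that of Hhip (root mean square difference 0.10), followed by Gpsm2 and Adgra3. The nearest to Gucy1a1 were B3galt1 (0.06), Phtf2 and Stum, the nearest to Gucy1b1 Zfp871 (0.06), Tfdp2 and Haus6, and the nearest to Prkg1 Vps54 (0.04), Fermt2 and Map4k5. The nearest to Pde5a were Garem1 (0.11), Magi3 and Fan1. Sema3c (0.11) and Zfp229 were near Cav1, and Npr1 was nearest to Mtmr3 (0.05), Smarcal1 and Kctd7. Npr3 was nearest to Ada (0.12), Rassf2 and Pak3. Nos2 had no near profile, the closest being Car2 (0.41), Aplnr and Adgrl4. These profiles hold the age difference as well as the spread within ages, and the measure carries no test.

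Other genes of the pathway were called in both directions. Of 66 other pathway genes listed in the files 58 were tested, and 21 were higher and 18 lower at 2 years, with a median log2 fold change of 0.19 against -0.01 for all genes tested. The 36.2% higher and 31.0% lower stand beside 25.8% and 26.2% of all genes tested.

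In the main fit most tested genes in the list of NO synthase substrate and cofactor supply were called higher. Of 13 tested, 9 were higher and 0 were lower (25.8% and 26.2% of all genes tested). Without replicate 3 of both ages 6 were higher and 0 lower, as with the replicate block and the length and GC offset together. The 9 include genes that supply neither, such as Ddah1 and Arg1. The arginine transporters Slc7a1 (log2 fold change -0.06, edgeR adjusted p = 0.746) and Slc7a2 (0.28, adjusted p = 0.155) were not called. Both were named after their values had been seen. Ass1, argininosuccinate synthase, which with Asl regenerates arginine from the citrulline that NO synthases release, had 72.8, 72.2, 51.7 and 77.6 CPM in 2 years replicates 1 to 4, against 15.4, 15.7, 12.7 and 14.8 CPM in 12 weeks replicates 1 to 4. The ages lay far apart, and the log2 fold change was 2.23 (SE 0.15, edgeR adjusted p = 1.71e-06). Ddah1, which breaks down the NO synthase inhibitor asymmetric dimethylarginine, averaged 12.6 ± 3.60 CPM at 2 years and 2.75 ± 0.523 CPM at 12 weeks (log2 fold change 2.19, SE 0.24, adjusted p = 3.27e-05). Arg1, an arginase that competes for arginine, had 361, 105, 68 and 13 counts at 2 years, against 2, 2, 2 and 3 counts at 12 weeks. Its log2 fold change was 5.71 (SE 0.90, adjusted p = 0.000511) and 5.03 without 2 years replicate 1, while limma voom gave an adjusted p of 0.0512. Gch1, the first enzyme of tetrahydrobiopterin synthesis, named after its values had been seen, was at 6.61 ± 1.57 CPM at 2 years and 2.65 ± 0.437 CPM at 12 weeks (2.50-fold, adjusted p = 0.000747). Macrophages also express Arg1, Ass1 and Gch1, and 13 of 14 macrophage markers were higher in the same libraries. Their part was not tested.

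Partners of the NO synthases showed no common direction: of 15 tested, 5 were higher and 3 lower (25.8% and 26.2% of all genes tested). Calm3, which encodes calmodulin, an activator of Nos3, was higher (427 ± 50.2 CPM at 2 years and 275 ± 24.6 CPM at 12 weeks, log2 fold change 0.63, adjusted p = 0.00253), and Cav3, a caveolin of muscle, was lower (-0.98, adjusted p = 0.00107, or -1.46 under the length and GC offset). With that offset 3 were higher and 5 lower. Of the 3 tested genes of other cyclase subunits and NO redox enzymes 2 were higher (25.8% of all genes tested). Gucy1a2, the alternative alpha subunit, had 4.39, 3.03, 1.17 and 2.47 CPM in 2 years replicates 1 to 4, against 1.18, 1.23, 0.703 and 1.01 CPM in 12 weeks replicates 1 to 4 (log2 fold change 1.44, SE 0.39, adjusted p = 0.00957). The ages overlapped through 2 years replicate 3, and without 2 years replicate 1 the log2 fold change was 1.12 (adjusted p = 0.0377). Adh5, which removes S-nitrosoglutathione, was also higher (0.62, adjusted p = 0.00152), but not with the offset (0.13, adjusted p = 0.280).

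Of 4 tested genes of natriuretic peptides, their processing and Npr2, 3 were lower and 0 higher (26.2% and 25.8% of all genes tested). Npr2, the receptor for C-type natriuretic peptide, averaged 70.5 ± 11.4 CPM at 2 years and 145 ± 15.3 CPM at 12 weeks (log2 fold change -1.04, SE 0.14, edgeR adjusted p = 0.000150), without overlap. The proteases Furin (-0.79, adjusted p = 0.00624) and Corin (-1.99, adjusted p = 0.0116) were lower too. Corin activates the atrial peptide precursor and is known from heart muscle. Its highest value, 12.1 CPM, was in 12 weeks replicate 3, and without that library its log2 fold change was -1.30 (adjusted p = 0.0326). Without replicate 3 of both ages Corin was not called (-1.19, adjusted p = 0.0599). Nppa, the atrial natriuretic peptide, named after its values had been seen, had 6774 counts in 12 weeks replicate 3 and 0 to 6 counts in each of the other 7 libraries, and it did not pass the filter.

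Among the other phosphodiesterases and cyclic nucleotide exporters 3 of 10 were higher and 4 lower (25.8% and 26.2% of all genes tested). The genes named here, chosen by smallest p, are all among the lower ones. Abcc5, an exporter of cGMP, had 28.7, 26.5, 23.1 and 25.6 CPM in 2 years replicates 1 to 4, against 106, 76.4, 75.9 and 78.9 CPM in 12 weeks replicates 1 to 4. The ages lay far apart (log2 fold change -1.70, SE 0.14, edgeR adjusted p = 5.75e-06). Pde1c, which hydrolyses cGMP and cAMP under calcium control, was lower (-1.08, adjusted p = 0.000165). Pde3a, a cAMP phosphodiesterase that cGMP inhibits, averaged 244 ± 79.3 CPM at 2 years and 522 ± 93.8 CPM at 12 weeks (-1.10, adjusted p = 0.00266). Its transcript of 12302 nt is long, and under the length and GC offset the value was -0.18 (adjusted p = 0.469). With the offset 5 were higher and 3 lower.

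Of 13 tested genes in the list of cGMP kinase substrates, 8 were lower and 2 higher (26.2% and 25.8% of all genes tested). Not all of them are substrates. The list also holds the second cGMP kinase Prkg2 (log2 fold change 0.59, edgeR adjusted p = 0.114) and the calcium pump Atp2a2 (-0.92, adjusted p = 0.00298). Its regulator Pln was not called (-0.27, adjusted p = 0.386). These 3 genes were named after their values had been seen. Irag1, the substrate through which Prkg1 restrains calcium release, had 264, 161, 182 and 356 CPM in 2 years replicates 1 to 4, against 659, 698, 648 and 653 CPM in 12 weeks replicates 1 to 4. The ages were far apart, and 2 years replicate 4 was the highest of its age. The log2 fold change was -1.46 (SE 0.23, edgeR adjusted p = 0.000329). Ppp1r12a, the targeting subunit of myosin phosphatase, averaged 258.5 ± 113 CPM at 2 years and 769 ± 101 CPM at 12 weeks (-1.57, adjusted p = 0.000547). Kcnma1, the pore of the large-conductance calcium-activated potassium channel, averaged 28.2 ± 9.55 CPM at 2 years and 77.3 ± 11.8 CPM at 12 weeks (-1.45, adjusted p = 0.000324). Its transcript has 12094 nt, and under the length and GC offset the value was -0.56 (adjusted p = 0.0140). With the offset 7 of the 13 were lower and 2 higher. These genes are expressed in smooth muscle, and 11 of 15 contractile markers were lower in the same libraries. Their part was not tested.

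**Figure D3:**
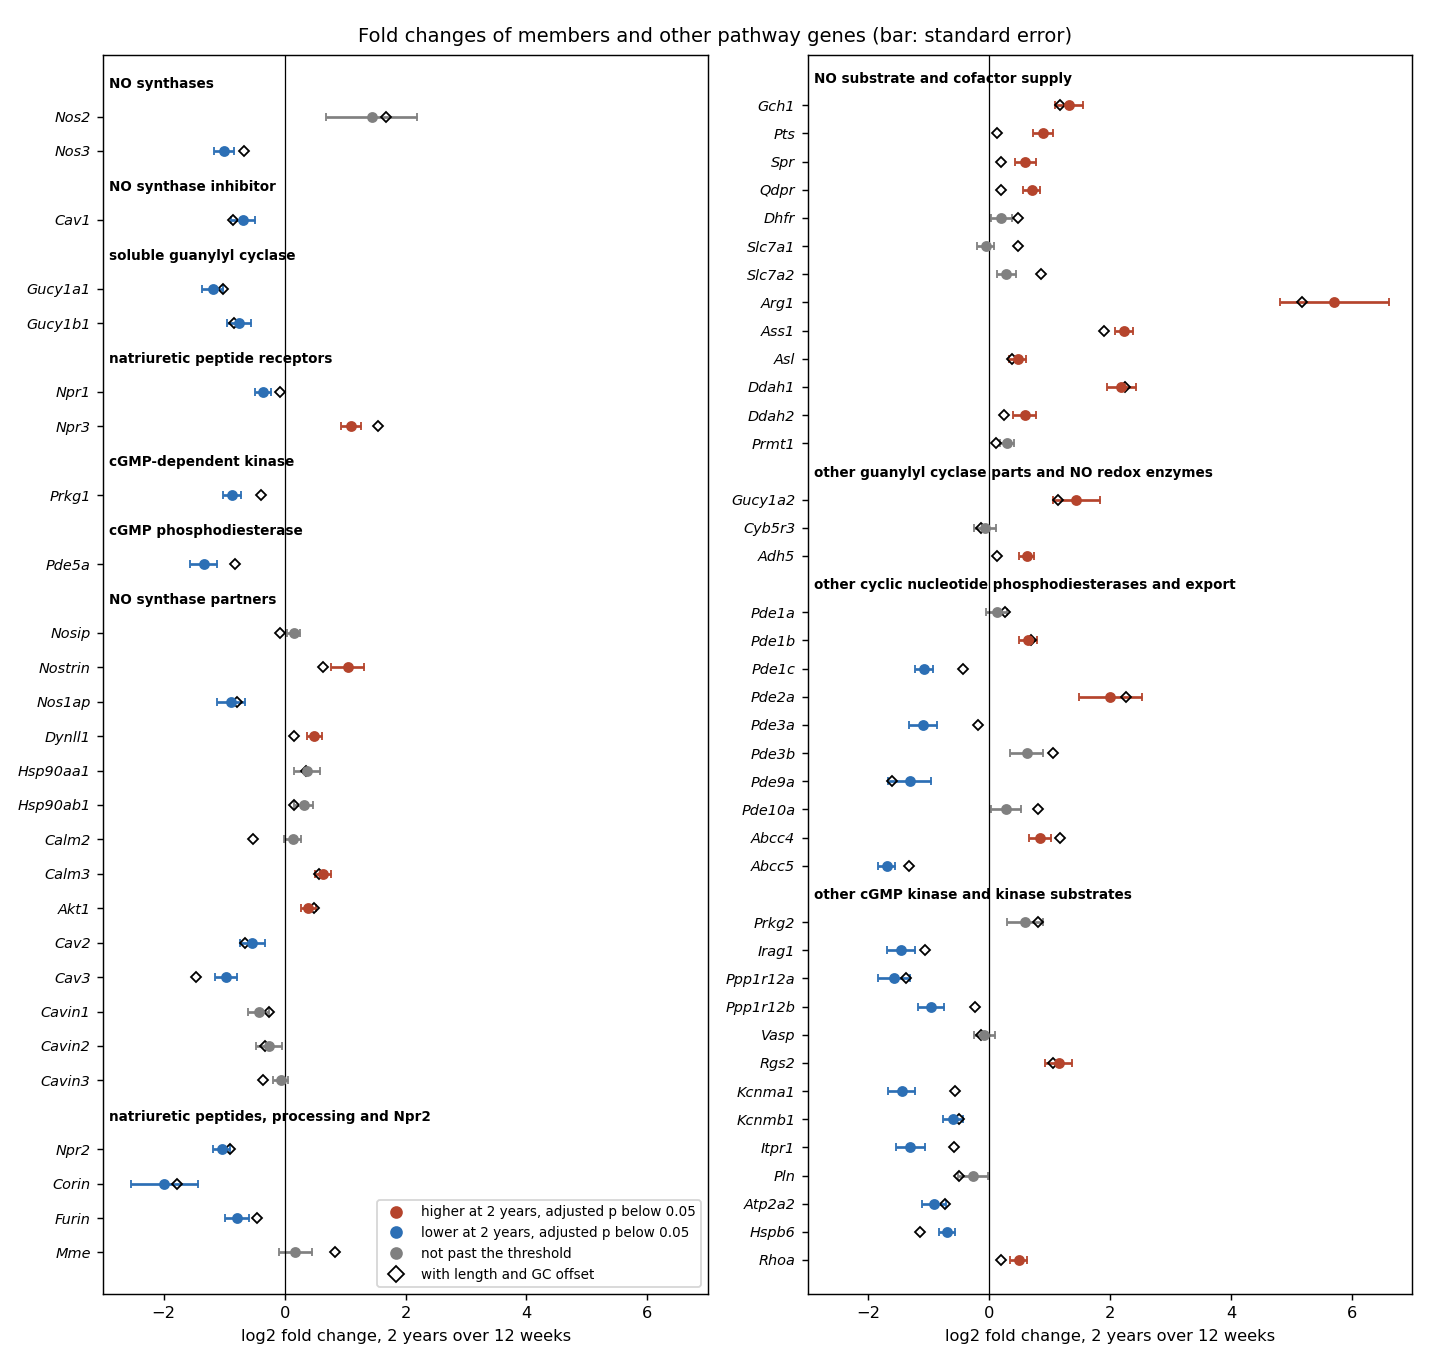
Log2 fold change, 2 years over 12 weeks, of the tested members and of the other pathway genes reported here, grouped by role, with the standard error as a bar and colours for the call. Open diamonds give the value under the length and GC offset. The 9 called genes of the substrate and cofactor list lie right of 0, while the cyclase, the kinase and most genes of its substrate list lie left of 0.

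**Figure D4:**
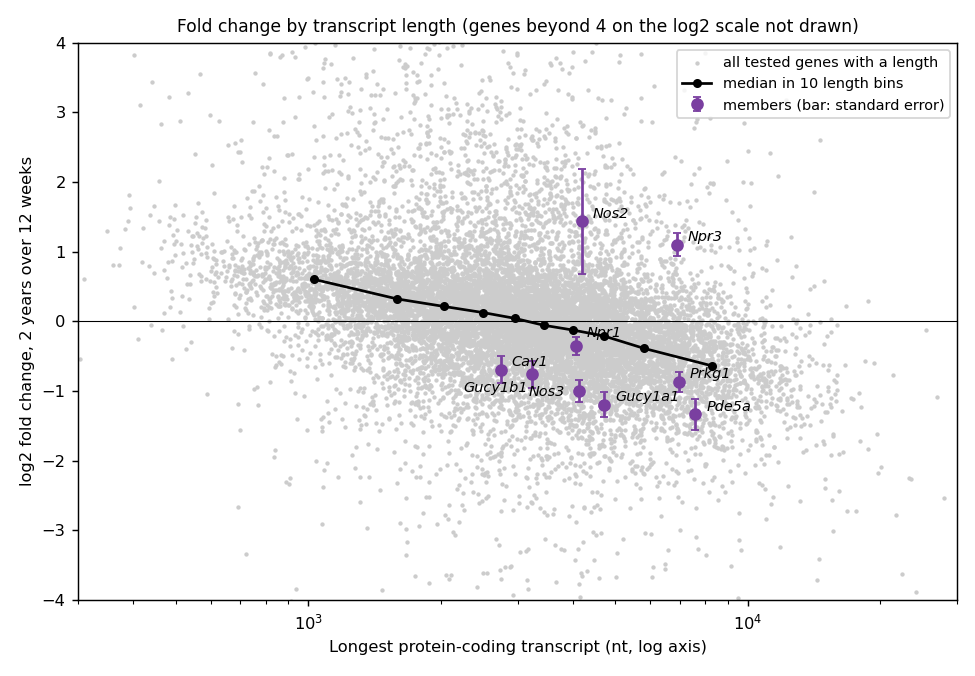
Log2 fold change against the longest protein-coding transcript (log axis) of all tested genes with a length, in grey, with the median of 10 length bins in black and the members with their standard errors. The bin medians run from 0.60 to -0.64, Npr3 lies above that line and the 7 called lower members lie below it.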

How the data were processed

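The deposited files hold 1 count per gene symbol and library, not normalized, per the labels and the file headers; the genome build is GRCm39, per the submitters' processing notes. Aligner, counting tool, annotation and strand handling were not given in the sources used here, so counts of overlapping genes are uncertain. The members and gene lists were chosen with earlier results of these data known.

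Genes passing edgeR's filterByExpr were scaled by TMM and tested by edgeR's quasi-likelihood test with age as the only term, with Benjamini-Hochberg adjustment over all 13978 genes and a threshold of 0.05. The numbers in the labels did not pair the mice, so no block was used. Only the main edgeR fit was tried on simulated counts, with 200 genes changed and no length trend. The offset, the ratios, the profile distances and the other fits were not tried in this way. Ratios of CPM were compared by exact permutation. Depth was at least 16251986 counts. SE and p-values reflect the spread between the 4 mice of each age. Lengths were taken by symbol from GENCODE M21 (98.7% of tested genes); the offset fits splines with 4 degrees of freedom on length and GC share. Named pathway genes were up to 3 per role by smallest p, named markers the 2 most abundant per list, and nearest profiles the 3 genes of at least 1 CPM with the smallest distance in log2 CPM (prior count 2). Other genes named in the text are marked there as chosen after their values were seen, and a few that the rules name are not reported here. Alternatives were other size factors, DESeq2, limma voom, no filter, each library left out, replicate 3 of both ages left out, the replicate block and the offset. Fits ran in edgeR 4.0.16, DESeq2 1.42.0 and limma 3.58.1 under R 4.3.3.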

Additional observations from a re-analysis of the deposited data

Results flagged for a closer look

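Single libraries stood apart from the others of their age (gap to the nearest library beyond Dixon's 95% critical value, which chance gives in about 1 in 20 groups). Every member, named gene, ratio and marker sum was screened at both ages, so that several of these flags are to be expected by chance. In 12 weeks replicate 1, Cav1 was at 654 CPM against 1032 to 1087 CPM in the others, Pde5a at 236 against 375 to 384 CPM, Pde3a at 383 against 554 to 587 CPM, Abcc5 at 106 against 75.9 to 78.9 CPM and the nerve marker Uchl1 at 140.2 against 75.2 to 85.4 CPM. In 12 weeks replicate 3, Nos2 was at 1.11 CPM against 0.0873 to 0.243 CPM, Acta2 at 12193 against 14176 to 14532 CPM, and the heart muscle markers summed to 1011 CPM against 236 to 306 CPM. At 2 years, Corin was at 2.57 CPM in replicate 1 against 0.937 to 1.11 CPM, Tnnt2 at 65.5 CPM in replicate 2 against 114.7 to 121.8 CPM and Prx at 25.9 CPM in replicate 4 against 13.3 to 14.3 CPM.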

How the results depend on the processing

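Nos3, Gucy1a1, Gucy1b1, Prkg1, Pde5a and Npr3 kept their direction and their call under all 16 alternatives. Npr1 was not called with no low-count filter (-0.36), without replicate 3 of both ages (-0.30), with the replicate block (-0.36), with the length and GC offset (-0.073) or with both (-0.081), and ranged from -0.41 to -0.29 with single libraries left out. Cav1 was not called without replicate 3 of both ages (-0.55). Nos2 ranged from 0.83 to 2.73 with single libraries left out and was called without 12 weeks replicate 3, where 2 members were higher; with any other library left out 1 was. Members called lower numbered 5 to 7. The cause was not tested.

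Same-numbered mice did not deviate together (correlations -0.31 to 0.05), and the replicate block left 1 member higher and 6 lower, with 3112 genes higher and 3320 lower. Ratios moved with the offset: Gucy1a1 over contractile smooth muscle was at -0.28, Prkg1 over contractile smooth muscle at 0.35, Pde5a over contractile smooth muscle at -0.078 and Gucy1a1 over Gucy1b1 at -0.16. With single markers in place of their sum the Prkg1 ratio was at -0.018. The order of levels kept 5 of 10 places with median transcript lengths. Among markers, Tagln was at -0.27 with the offset and -0.28 with offset and block, Col1a2 at 0.0013 and Col1a1 at 0.17 with the offset and 0.082 with both, none called. Counts of 2 to 52 per library limit what can be said of Nos1 and Nos2. With the replicate block 4 fat markers were higher, and 1 heart muscle marker was higher and 1 lower. With no low-count filter 1 heart muscle marker was lower and 0 were higher.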
